A study of Homo sapiens with 6 samples.

Results

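In total 85 protein-coding genes for cytosolic ribosomal proteins, chosen by symbol, were followed through 6 RNA-seq libraries of HepG2, a human hepatocellular carcinoma line. They are the rows, out of 60240 in the deposited table, whose Ensembl ID maps to a protein-coding symbol beginning RPL, RPS, RPLP or RPSA. The rule took 32 genes of the small subunit and 53 of the large subunit. Among them, 77 encode canonical subunits and 8 encode paralogues (RPL3L, RPL7L1, RPL10L, RPL22L1, RPL26L1, RPL36AL, RPL39L and RPS27L). It left out the RPS6K kinases and 6 other protein-coding genes with similar symbols. The 6 were the Y-linked RPS4Y1 and RPS4Y2, the read-through genes RPL17-C18orf32, RPL36A-HNRNPH2 and RPS10-NUDT3, and RPS19BP1.

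The groups were 3 GDF11 cultures, given recombinant GDF11 protein at 100 ng/ml for 24 h, and 3 control cultures, which the labels call control with no mention of a vehicle. GDF11 is growth differentiation factor 11, a secreted ligand of the TGF-beta family. All 6 cultures are of 1 tumour line and are called biological replicates in the labels. Total RNA was sequenced as single reads of 75 bases, and the libraries held an estimated 47900000 to 53400000 reads each.

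A ribosome has 2 subunits, each a shell of proteins around ribosomal RNA. The small subunit reads the messenger RNA, and the large subunit forms the peptide bond and carries the P stalk, which recruits elongation factors. Messages of ribosomal proteins are among the most abundant of a growing cell. Most begin with a terminal oligopyrimidine tract, a C at the first base followed by further C or T bases, through which the kinase mTORC1 and the RNA-binding protein LARP1 control their translation and stability.

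Start regions are shown for 13 members, with and without that tract, since it is the sequence feature by which the family is known. Some were chosen for having among the lowest or highest differences between GDF11 and control libraries, so the choice was made with those differences known. Each line gives 30 bases of RefSeq GRCh38.p14, 15 before and 15 from the annotated start of the gene, with the unbroken C or T run from that start in capitals. The 5 subunit genes RPS3A, RPL35, RPL36, RPS6 and RPLP0 come first, then 2 pairs of a canonical gene and its paralogue, then RPL26. RPS29, RPL11 and RPL6, canonical genes without the tract at the annotated start, close the list.
RPS3A, chr4:151099613-151099642, plus strand: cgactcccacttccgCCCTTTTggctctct
RPL35, chr9:124861943-124861972, minus strand: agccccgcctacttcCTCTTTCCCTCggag
RPL36, chr19:5690280-5690309, plus strand: ccgcgcggcgccagcCCTTCCgccacggcc
RPS6, chr9:19380222-19380251, minus strand: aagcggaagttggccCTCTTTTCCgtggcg
RPLP0, chr12:120201097-120201126, minus strand: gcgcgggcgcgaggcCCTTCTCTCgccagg
RPS27, chr1:153990747-153990776, plus strand: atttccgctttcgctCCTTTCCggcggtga
RPS27L, chr15:63157463-63157492, minus strand: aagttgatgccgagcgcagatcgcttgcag
RPL22, chr1:6199581-6199610, minus strand: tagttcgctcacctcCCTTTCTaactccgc
RPL22L1, chr3:170870181-170870210, minus strand: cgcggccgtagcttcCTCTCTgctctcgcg
RPL26, chr17:8383179-8383208, minus strand: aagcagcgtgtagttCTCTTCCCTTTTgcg
RPS29, chr14:49598696-49598725, minus strand: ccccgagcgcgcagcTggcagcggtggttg
RPL11, chr1:23691764-23691793, plus strand: cgcctcctggcccataaggccctcggccgg
RPL6, chr12:112411428-112411457, minus strand: tatttgtatcctcagTgaatcagaaccaga

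RefSeq start regions were matched for 68 members. Of these, 43 (63.2%) had a C at the annotated start followed by at least 4 bases that were C or T, against 4.04% of 27305 start regions of all genes. The tract was present in 42 of 62 canonical subunit genes (67.7%) and in 1 of 6 paralogues, RPL22L1; RPS27L, RPL7L1 and RPL26L1 were among those without it. Only the strand of the gene was read. An annotated start can lie some bases away from the start used in these cells, and a missing match says only that the letters were not at that position.

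The libraries held the markers of their label. The 8 hepatocyte and fetal liver genes checked, ALB, AFP, APOA1, APOB, TTR, SERPINA1, TF and FGB, stood between 10.73 and 19.56 on the deposited log2 scale, while PTPRC and CD3E, markers of leukocytes, stood at 5.52, the value of a gene without reads, in all 6 libraries. The stromal markers COL1A2, DCN and LUM reached at most 5.99 and the endothelial markers CDH5 and VWF at most 7.27. CD14, which hepatocytes also make, had values of 8.16 to 9.70. RNA integrity numbers were 9.6, 9.5 and 9.4 in GDF11 replicates 1, 2 and 3, and 9.8, 9.9 and 9.6 in control replicates 1, 2 and 3. Across all 18723 tested genes, 2185 (11.7%) were called higher and 2017 (10.8%) lower with GDF11 by limma at a Benjamini-Hochberg adjusted p under 0.05. One library has to be named before any result on the ribosome: control replicate 3 lay apart from the other controls for most members, and the results on the class and on the named genes are given with and without it.

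Ribosomal protein messages made up a smaller share of the GDF11 libraries than of 2 of the 3 controls. They held 6.64%, 7.69% and 6.44% of the normalised reads in GDF11 replicates 1, 2 and 3, against 10.8%, 10.8% and 7.44% in control replicates 1, 2 and 3. The GDF11 libraries were all low, control replicates 1 and 2 were high, and control replicate 3 lay inside the range of the GDF11 libraries. Group means were 6.92% ± 0.68 with GDF11 and 9.65% ± 1.92 in controls (SD, n = 3 each).

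Control replicates 1 and 2 also had the highest shares within both subunits and the P stalk. Small subunit genes held 2.87%, 3.36% and 2.74% of the reads with GDF11, against 5.0%, 4.89% and 3.20% in controls. Large subunit genes outside the P stalk held 3.41%, 3.95% and 3.37% with GDF11, against 5.25%, 5.27% and 3.81% in controls. For the 3 P stalk genes the shares were 0.361%, 0.389% and 0.329% with GDF11, against 0.505%, 0.611% and 0.423% in controls. Control replicate 3 lay within the GDF11 range for both subunits and above it for the P stalk. In each class the libraries with RNA integrity numbers of 9.8 and 9.9 were the 2 with the most ribosomal protein reads. Among the libraries at 9.4 to 9.6, the highest share was in GDF11 replicate 2, at 9.5, for both subunits and in control replicate 3, at 9.6, for the P stalk. In a bulk sample, fewer cells making a message and less message per cell cannot be told apart.

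**Figure D1:**
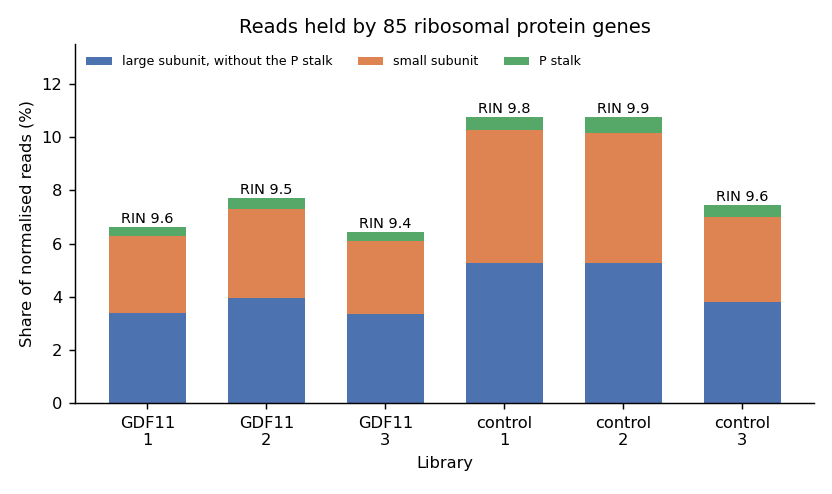
Share of normalised reads (%, vertical axis from 0) held by large subunit, small subunit and P stalk genes in each library, with the RNA integrity number (RIN) above each bar. Control replicates 1 and 2 each reach 10.8%, while the 3 GDF11 libraries and control replicate 3 lie between 6.44% and 7.69%.

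Gene by gene, 83 of the 85 members had enough signal to be tested; RPL10L and RPL39L did not, with means within 0.5 of the lowest value of the table. In the comparison of all 3 GDF11 with all 3 control libraries, 1 of 83 was called lower and 0 higher, where 10.8% of all tested genes were called lower and 11.7% higher. At an unadjusted p under 0.05 there were 50 of 83 members, against 6957 of all 18723 tested genes. At an adjusted p under 0.1, 33 members were lower and 0 higher, against 2973 lower and 3004 higher of all 18723. The difference was below 0 for 79 of the 83, with a median of -0.63 on the log2 scale and a range of -1.05 to 0.20. The median over all tested genes was 0.0056. Small subunit genes had a median difference of -0.68 (0 of 32 called) and large subunit genes one of -0.58 (1 of 51 called lower). The 77 canonical subunits had a median of -0.67 and the 6 tested paralogues one of -0.08.

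The controls were more spread than the GDF11 libraries. The median SD of a canonical subunit gene was 0.51 among controls and 0.21 among GDF11 libraries, and the control SD was the larger for 73 of 77. The same SDs were not computed over all tested genes. Control replicate 3 was also apart across genes in general. Its correlations with control replicates 1 and 2 were 0.984 and 0.982, against 0.992 to 0.994 for the other pairs within a group. Without control replicate 3, 72 of 83 members were called lower and 0 higher, against 21.3% of all tested genes lower and 19.5% higher in the same fit. The median difference over members was then -0.91, against 0.014 over all tested genes. These calls rest on 2 control libraries. The library left out is the control whose member values lay with the GDF11 libraries, so a rise in calls is partly built in. The adjusted p-values without it, here and below, are therefore not a second, independent test. With all 6 libraries and RNA integrity as a covariate, the median over members was 0.01 and 0 of 83 were called, while 3.85% of all genes were called lower and 6.14% higher. Integrity is nearly aligned with the groups and with the split among controls, so its part and that of GDF11 cannot be told apart.

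**Figure D2:**
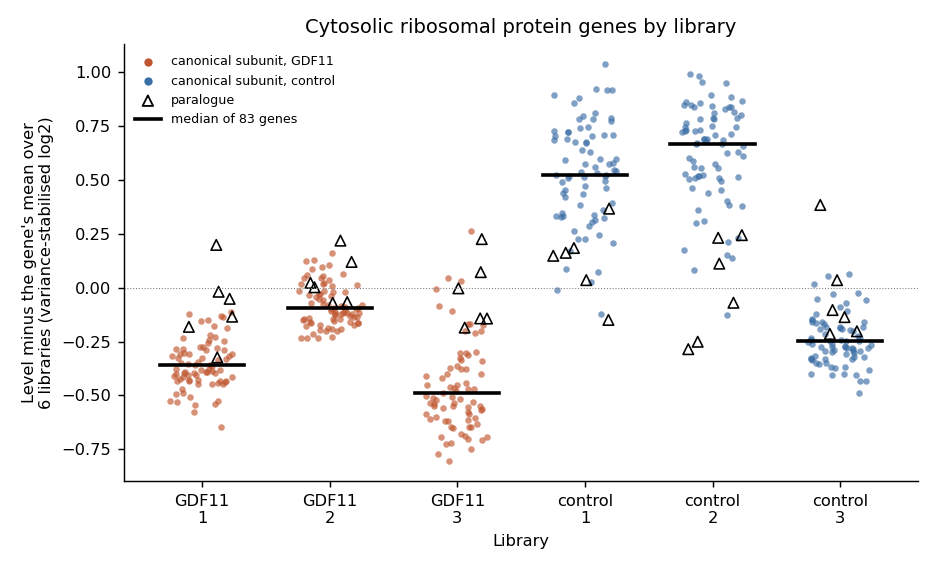
Level of each of the 83 tested genes in each library, as the difference from that gene's mean over the 6 libraries (variance-stabilised log2 scale); points are canonical subunits, triangles paralogues and bars the median. By their medians, control replicates 1 and 2 lie above the other 4 libraries, and control replicate 3 lies between GDF11 replicates 1 and 2.

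Control replicate 3 stood below both other controls for 79 of 83 members (39.2% of all tested genes did so), and by at least 0.5 for 63 of 83 (10.4% of all genes). The exceptions to the first count were RPL6, RPL7, RPL7L1 and RPS27L. Over the members, control replicate 3 minus control replicate 1 had a median of -0.77, with quartiles of -1.02 and -0.52. Control replicate 3 minus control replicate 2 had a median of -0.89. Over the other tested genes the same 2 differences had medians of 0.02 and -0.0021, which normalization between libraries tends to hold near 0. Their quartiles were -0.25 and 0.27 for the first difference and -0.33 and 0.30 for the second. Being 1 library, control replicate 3 was given no test.

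Set against the treated cultures, control replicate 3 was hard to distinguish. It fell within the range of the 3 GDF11 values for 68 of 83 members (30.7% of all tested genes). It lay above all of them for 9 members and below all of them for 6, where the shares of all genes were not computed. GDF11 replicates 1, 2 and 3 minus control replicate 3 had medians over members of -0.12, 0.17 and -0.22. All 3 GDF11 values lay below all 3 control values for 8 members (19.6% of all tested genes): RPLP0, RPL3, RPL4, RPL5, RPL14, RPL22L1, RPS2 and RPSA. They lay above all control values for 0 members (20.9% of all tested genes). By comparison, they lay below control replicates 1 and 2 for 76 members (31.4% of all tested genes).

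The treated libraries also differed among themselves in a shared direction. GDF11 replicate 2 was the highest of the 3 for 78 of 83 members (37.9% of all tested genes). It exceeded GDF11 replicate 1 by a median of 0.28 and GDF11 replicate 3 by a median of 0.38. Control replicates 1 and 2 were closer, with a median difference of -0.09 between the first and the second.

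Within the small subunit, RPS3A had the lowest difference of all members. Its log2 values were 16.19, 16.54 and 16.00 in GDF11 replicates 1, 2 and 3, against 17.81, 17.72 and 16.36 in control replicates 1, 2 and 3. The treated values lay more than 1 below the first 2 controls and overlapped the third. The difference was -1.05 ± 0.37 (SE, adjusted p = 0.0711, not called), and -1.52 ± 0.17 without control replicate 3 (adjusted p = 0.000317, called lower).

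RPS3, a component of the messenger RNA entry channel that also has a role in DNA repair, stood at 15.93, 16.10 and 15.63 with GDF11, against 17.12, 17.17 and 16.08 in controls (-0.90 ± 0.30, adjusted p = 0.0615). RPSA, which encodes a subunit also known as the laminin receptor, stood at 15.84, 15.97 and 15.54 with GDF11, against 16.68, 16.91 and 16.04 in controls. Its groups did not overlap, with GDF11 replicate 2 only -0.07 from control replicate 3, and it was not called (-0.76 ± 0.25, adjusted p = 0.0565). Without control replicate 3 the difference was -1.26 for RPS3 (adjusted p = 0.000512) and -1.01 for RPSA (adjusted p = 0.0015).

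RPS6, the substrate of S6 kinase downstream of mTORC1, had 16.19, 16.47 and 16.06 with GDF11, against 17.29, 17.25 and 16.27 in controls (-0.69 ± 0.28, adjusted p = 0.112). RPS19, the first gene linked to Diamond-Blackfan anaemia, had 15.53, 15.92 and 15.40 with GDF11, against 16.91, 16.92 and 15.66 in controls (-0.88 ± 0.34, adjusted p = 0.0934). In both, the third control was within the GDF11 values. RPS29 had the greatest distance of control replicate 3 from the nearer of the other controls, 1.41. It stood at 13.64, 14.20 and 13.59 with GDF11, against 15.20, 15.27 and 13.79 in controls (-0.94 ± 0.37, adjusted p = 0.102, not called). The difference without control replicate 3 was -1.03 for RPS6 (adjusted p = 0.0011), -1.30 for RPS19 (adjusted p = 0.000574) and -1.42 for RPS29 (adjusted p = 0.000631).

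Not all small subunit genes had differences of this size. RPS27A, which encodes a fusion of ubiquitin with a ribosomal protein, had 15.21, 15.47 and 15.27 with GDF11, against 15.69, 15.75 and 15.29 in controls (-0.26 ± 0.18, adjusted p = 0.334). RPS27 had 14.51, 14.86 and 14.53 with GDF11, against 15.00, 15.10 and 14.41 in controls (-0.20 ± 0.22, adjusted p = 0.533), with its lowest value in a control library. The product of FAU, whose symbol lies outside the rule, carries a ribosomal protein fused to a ubiquitin-like protein. FAU stood at 13.94, 13.91 and 13.79 with GDF11, against 14.65, 14.69 and 13.94 in controls (-0.55 ± 0.22, adjusted p = 0.0988). With control replicate 3 left out, the difference was -0.41 for RPS27A (adjusted p = 0.0321), -0.41 for RPS27 (adjusted p = 0.0446) and -0.80 for FAU (adjusted p = 0.000882).

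In the large subunit, RPL9 was the one member called in the comparison of all 6 libraries. Its values were 14.31, 14.61 and 14.15 with GDF11, against 15.65, 15.72 and 14.60 in controls, so that it fell by 0.97 ± 0.30 (adjusted p = 0.0460) although GDF11 replicate 2 and control replicate 3 nearly coincide. That call ended without any one of control replicate 1 or 2 or GDF11 replicate 1, 2 or 3 (adjusted p of 0.0661 to 0.162) and with the RNA integrity covariate (-0.16, adjusted p = 0.804). RPL9 also shares reads with a near-identical pseudogene. RPL9P9 held 22553, 31740 and 21066 normalised reads with GDF11, against 65352, 65690 and 29090 in controls, and in the controls the pseudogene rows of RPL9 held 123% as many reads as RPL9 itself. With their reads summed, the difference was -0.996 (adjusted p = 0.0522, not called). Leaving out control replicate 3, limma gave a difference of -1.33 for RPL9 (adjusted p = 0.000325).

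RPL36 also had a difference close to that of RPS3A. It stood at 13.64, 13.95 and 13.41 with GDF11, against 15.03, 15.03 and 13.75 in controls (-0.94 ± 0.33, adjusted p = 0.0755). Control replicate 3 was 1.27 from the nearer of the other controls and inside the GDF11 range. Once control replicate 3 was left out, the difference was -1.36 for RPL36 (adjusted p = 0.000399).

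RPL5 and RPL11, which with the smallest ribosomal RNA bind the p53 regulator MDM2, were measured as follows. RPL5 stood at 15.44, 15.66 and 15.45 with GDF11, against 16.34, 16.32 and 15.71 in controls, without overlap (-0.61 ± 0.21, adjusted p = 0.0687). RPL11 stood at 14.52, 14.72 and 14.55 with GDF11, against 14.73, 14.83 and 14.59 in controls (-0.12 ± 0.15, adjusted p = 0.618). The difference without control replicate 3 was -0.82 for RPL5 (adjusted p = 0.00135) and -0.18 for RPL11 (adjusted p = 0.259). The difference between the 2 genes was not tested.

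RPL3, a subunit close to the peptidyl transferase centre, had 16.42, 16.50 and 16.27 with GDF11, against 16.83, 17.05 and 16.58 in controls (-0.42 ± 0.19, adjusted p = 0.136), and its groups did not overlap. RPL10, which is added late in the maturation of the large subunit, had 15.75, 16.00 and 15.62 with GDF11, against 16.68, 16.85 and 15.85 in controls (-0.67 ± 0.27, adjusted p = 0.105). RPL39, a small protein of the exit tunnel, had 14.09, 14.43 and 14.01 with GDF11, against 15.07, 15.31 and 14.25 in controls (-0.70 ± 0.27, adjusted p = 0.0969). RPL10 and RPL39 again placed the third control with the treated libraries. With control replicate 3 left out, the difference was -0.54 for RPL3 (adjusted p = 0.0132), -0.98 for RPL10 (adjusted p = 0.00126) and -1.01 for RPL39 (adjusted p = 0.00136).

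The 3 P stalk genes had closely similar differences. RPLP0, the stalk base, had 16.60, 16.69 and 16.35 with GDF11, against 17.25, 17.61 and 16.84 in controls, without overlap (-0.69 ± 0.23, adjusted p = 0.0618). RPLP1 had 15.47, 15.70 and 15.32 with GDF11, against 16.16, 16.67 and 15.64 in controls (-0.66 ± 0.26, adjusted p = 0.1004). RPLP2 had 14.65, 14.88 and 14.46 with GDF11, against 15.63, 15.83 and 14.72 in controls (-0.73 ± 0.28, adjusted p = 0.0953). Without control replicate 3 all 3 were called lower, by 0.89 to 1.06.

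**Figure D3:**
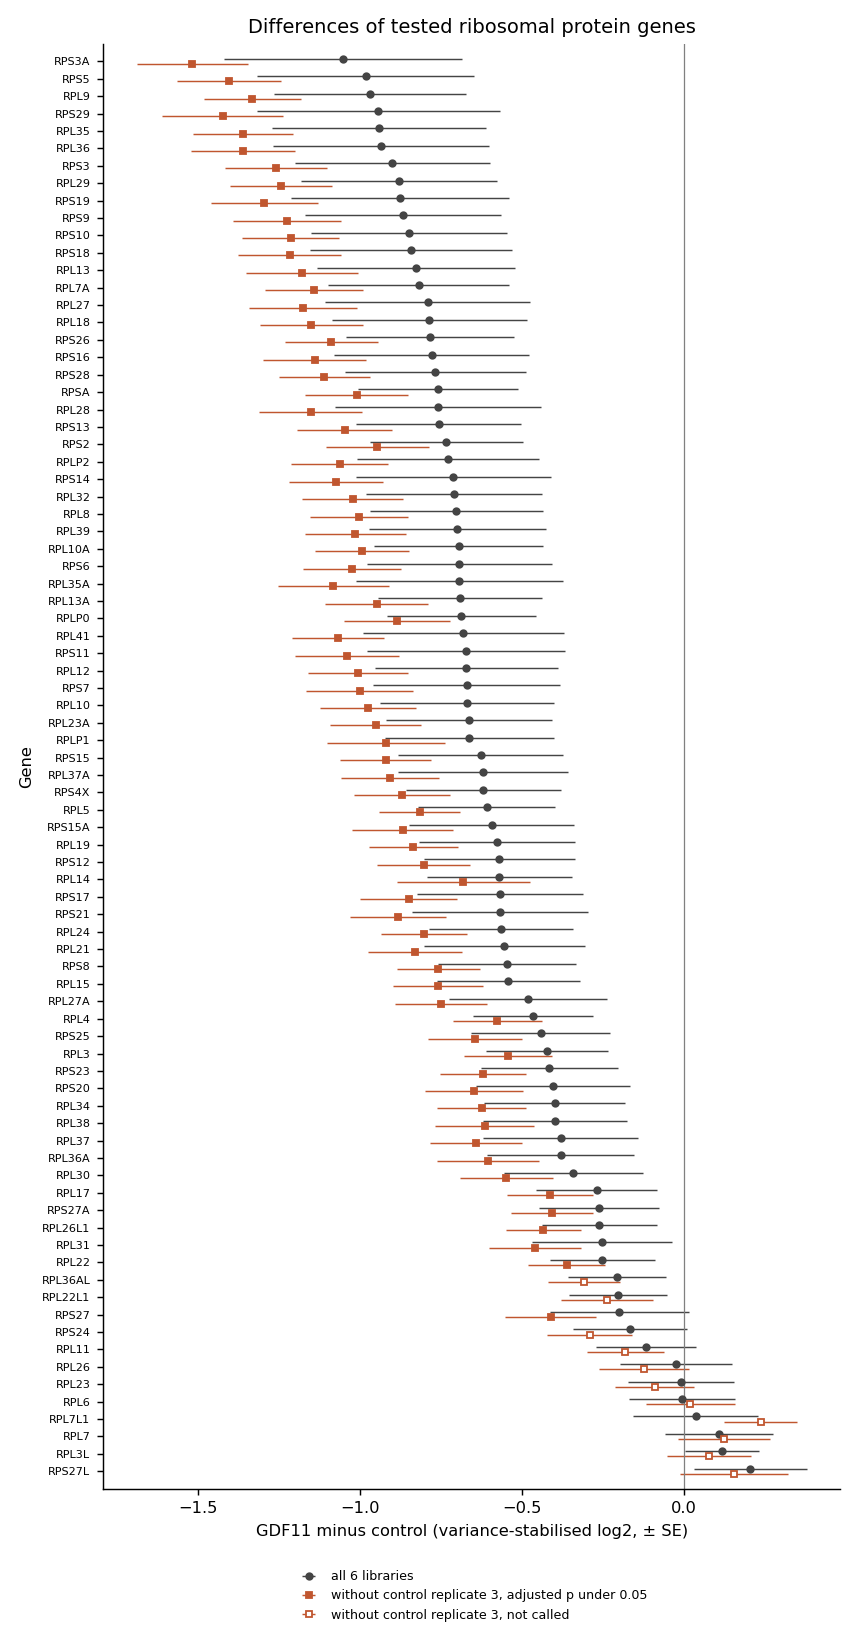
Difference of GDF11 minus control with its SE for the tested genes (variance-stabilised log2, 1 gene not shown), from all 6 libraries (circles) and without control replicate 3 (squares, filled where the gene was called by limma at an adjusted p under 0.05). Squares lie left of circles for most genes, most squares are filled, and the genes at the foot of the plot sit around 0 in both fits.

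Of the tested members, 11 were not called even without control replicate 3. They were the canonical subunits RPS24, RPL6, RPL7, RPL11, RPL23 and RPL26 and the paralogues RPL3L, RPL7L1, RPL22L1, RPL36AL and RPS27L; RPS24, RPL6, RPL7 and RPL23, like RPL35, RPL4, RPL14 and RPS2 above, are named after their values were seen. RPL6 stood at 14.81, 15.12 and 15.03 with GDF11, against 14.87, 15.07 and 15.04 in controls (-0.0068 ± 0.16, adjusted p = 0.980). RPL7 stood at 15.02, 15.19 and 15.42 with GDF11, against 15.15, 15.03 and 15.13 in controls (0.11 ± 0.17, adjusted p = 0.672). RPL26 stood at 14.29, 14.67 and 14.54 with GDF11, against 14.60, 14.65 and 14.33 in controls (-0.03 ± 0.17, adjusted p = 0.930). Leaving out control replicate 3, limma gave a difference of 0.02 for RPL6 (adjusted p = 0.925), 0.12 for RPL7 (adjusted p = 0.53) and -0.12 for RPL26 (adjusted p = 0.514). In the start regions printed above, RPL26 has the pyrimidine tract, and RPL6 and RPL11 do not. RPS24, whose start region is not printed, also has the tract, with a run of 14 bases. Per length, RPL6 averaged 35297 normalised reads per kb with GDF11 and 35393 in controls, and control replicate 3 lay among the other libraries in RPL6 and RPL7.

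The paralogues were measured at lower levels per length than their canonical partners. RPS27L, a p53 target gene, averaged 594 normalised reads per kb with GDF11 and 514 in controls, against 72472 and 84546 for RPS27. RPS27L has an annotated canonical transcript of 6110 bases, against 352 for RPS27, so the size of this gap depends on the annotated lengths. On the log2 scale, not divided by length, RPS27L had a control mean of 11.65, against 14.84 for RPS27. Its log2 values were 11.62, 11.97 and 11.97 with GDF11, against 11.90, 11.50 and 11.55 in controls, which overlap (0.20 ± 0.17, adjusted p = 0.425). RPL22L1 averaged 824 reads per kb with GDF11 and 951 in controls, and RPL22 averaged 6932 with GDF11 and 8313 in controls. RPL22L1 stood at 10.46, 10.81 and 10.78 with GDF11, against 10.95, 10.90 and 10.82 in controls, without overlap (-0.20 ± 0.15, adjusted p = 0.361). RPL22 stood at 13.79, 13.91 and 13.73 with GDF11, against 14.11, 14.24 and 13.84 in controls (-0.25 ± 0.16, adjusted p = 0.289). Without control replicate 3 the difference was 0.15 for RPS27L (adjusted p = 0.495), -0.24 for RPL22L1 (adjusted p = 0.216) and -0.36 for RPL22 (adjusted p = 0.0376).

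RPL7L1, a relative of RPL7, was the 1 tested member with control replicate 3 above both other controls. It had 13.44, 13.46 and 13.53 with GDF11, against 13.31, 13.18 and 13.84 in controls (0.04 ± 0.19, adjusted p = 0.913). RPL26L1 had 11.09, 11.20 and 11.13 with GDF11, against 11.64, 11.51 and 11.06 in controls (-0.26 ± 0.18, adjusted p = 0.315), and was the paralogue called lower without control replicate 3 (-0.44 ± 0.12, adjusted p = 0.0171). RPL36A had 12.86, 13.35 and 13.14 with GDF11, against 13.62, 13.83 and 13.05 in controls (-0.38 ± 0.23, adjusted p = 0.257). RPL36AL had 12.31, 12.29 and 12.17 with GDF11, against 12.54, 12.59 and 12.25 in controls (-0.21 ± 0.15, adjusted p = 0.354). The difference without control replicate 3 was 0.24 for RPL7L1 (adjusted p = 0.126), -0.61 for RPL36A (adjusted p = 0.0161) and -0.31 for RPL36AL (adjusted p = 0.054).

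The remaining paralogues were near the lowest value of 5.52. RPL3L, the striated muscle form of RPL3, averaged 6.25 normalised reads per kb with GDF11 and 4.34 in controls, with log2 values of 6.42, 6.34 and 6.08 with GDF11, against 6.25, 6.15 and 6.08 in controls (0.12 ± 0.11, adjusted p = 0.497). RPL10L, a testis form of RPL10, was listed at 5.52, 5.73 and 5.80 with GDF11, against 6.02, 6.14 and 5.73 in controls. RPL39L was listed at 5.82, 5.73 and 5.52 with GDF11, against 5.91, 5.85 and 5.82 in controls. Neither was tested. With control replicate 3 left out, the difference was 0.08 for RPL3L (adjusted p = 0.672).

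**Figure D4:**
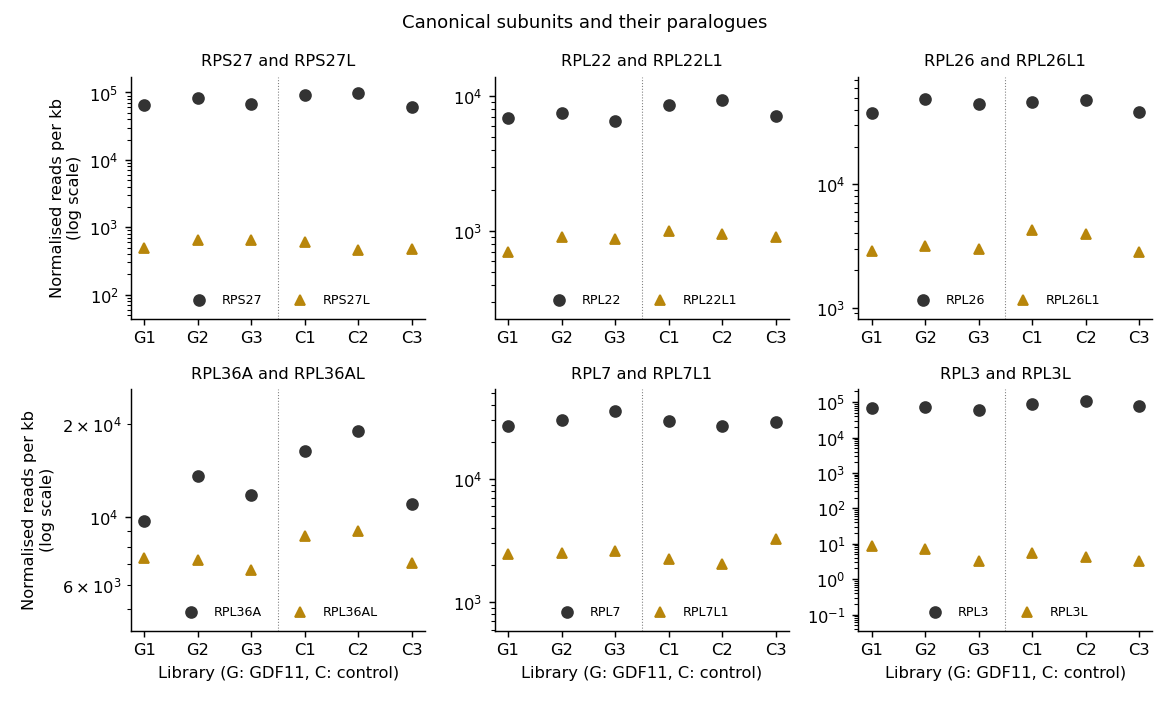
Normalised reads per kb of canonical transcript (log scale) for 6 canonical genes (circles) and their paralogues (triangles) in GDF11 replicates 1 to 3 (G1 to G3) and control replicates 1 to 3 (C1 to C3). Each paralogue lies below its partner in every library, with RPL3L lowest, at group means of 6.25 with GDF11 and 4.34 in controls.

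The size of the difference varied with transcript composition. Across the 83 tested members, GC content of the canonical transcript and the difference from all 6 libraries had a Pearson correlation of -0.49 (Spearman -0.53); the members share their libraries and are not independent replicates. For control replicate 3 minus control replicate 1 the Pearson correlation with GC content was -0.40, and for control replicate 3 minus control replicate 2 it was -0.45. Ordered by GC content, the lowest 26 canonical subunits (40.1% to 45.5% GC) had a median difference of -0.44, the middle 26 one of -0.64, and the highest 25 (52.2% to 63.6% GC) one of -0.77. Control replicate 3 minus control replicate 1 had medians of -0.58, -0.77 and -1.02 in the same 3 sets.

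Other properties were set beside the difference in the same way. Over the 83 tested members its Pearson correlation was -0.53 with mean level, 0.25 with log2 transcript length and -0.19 with the length of the C or T run at the start (n = 67). Among the 77 canonical subunits it was -0.52 with GC content, -0.31 with mean level, 0.11 with log2 transcript length and -0.06 with the run (n = 62). The tested members had a median transcript length of 869 bases, against 2654 bases over all tested genes, and a median GC content of 47.4%, against 49.1%. After the trend of each library on GC content and length over all genes was removed, the median difference was -0.59 and 18 of 83 members were called lower, with 0 higher, where 16.7% of all tested genes were called lower and 13.9% higher. In those values control replicate 3 stood below both other controls for 79 of 83 members, with a median of -0.67 against control replicate 1. The share of all tested genes was not computed after this removal. Whether GC content or length accounts for the position of control replicate 3 was not tested.

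**Figure D5:**
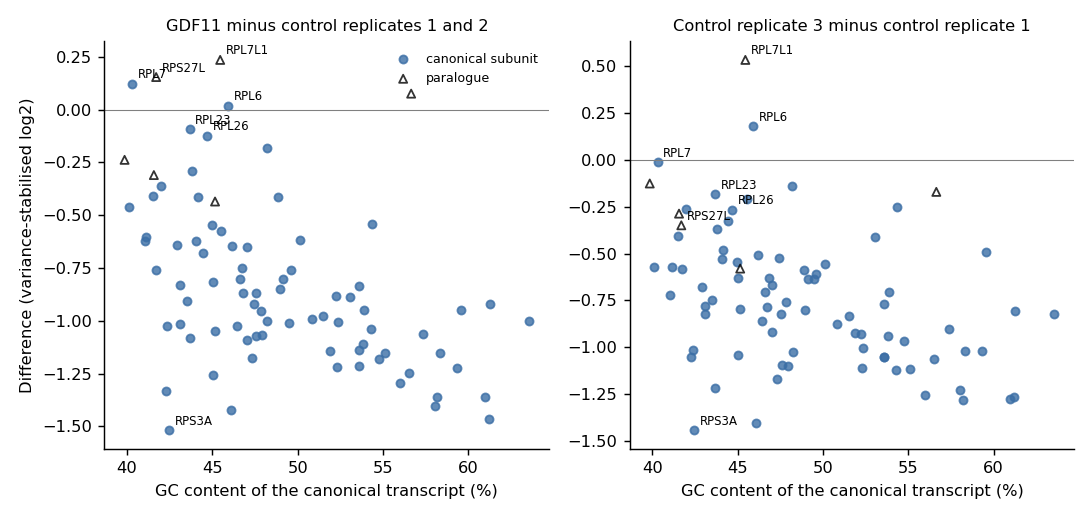
GC content of the canonical transcript (%) of each tested gene against the difference of GDF11 minus control replicates 1 and 2 (left) and of control replicate 3 minus control replicate 1 (right), on the variance-stabilised log2 scale; circles are canonical subunits and triangles paralogues. Points run downwards to the right in both panels, with RPL6, RPL7 and RPL7L1 at the top left of both.

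Pseudogenes of the members form 1595 rows of the table and held 0.137%, 0.156% and 0.132% of reads with GDF11, against 0.236%, 0.248% and 0.165% in controls, with control replicate 3 above the GDF11 libraries and below the other controls. Besides RPL9, the rows with most reads beside their parent genes belonged to RPS28 (53.8% of the parent's reads in controls) and RPL22 (30.4%). Those of RPL36A (15.8%), RPL39 (12.3%) and RPS2 (10.7%) came next. The levels of all these genes are uncertain to that extent. With every gene summed with its pseudogenes, the median difference was -0.63.

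Other messages known for a terminal oligopyrimidine start were not called. Of 24 such genes listed, which include FAU, 0 rose and 0 fell by limma, while 12 of the 24 had an unadjusted p under 0.05, against 6957 of all 18723 tested genes. Their median difference was -0.47. Without control replicate 3, 17 of the 24 were called lower, against 21.3% of all tested genes. EEF1B2, a subunit of the elongation factor that reloads EEF1A1, stood at 15.19, 15.48 and 15.01 with GDF11, against 16.53, 16.46 and 15.40 in controls (-0.91 ± 0.30, adjusted p = 0.0616). EEF2, the translocation factor, stood at 17.28, 17.38 and 16.96 with GDF11, against 18.01, 18.33 and 17.48 in controls (-0.74 ± 0.25, adjusted p = 0.0664). BTF3 had a difference of -0.53 ± 0.18 (adjusted p = 0.0701) and NPM1, a nucleolar chaperone, one of -0.46 ± 0.16 (adjusted p = 0.0768). Leaving out control replicate 3, limma gave a difference of -1.27 for EEF1B2 (adjusted p = 0.000451), -0.97 for EEF2 (adjusted p = 0.00279), -0.69 for BTF3 (adjusted p = 0.00299) and -0.48 for NPM1 (adjusted p = 0.0208).

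Mitochondrial ribosomal proteins, which serve the separate ribosome of that organelle, had a similar median with more calls. Of 78 genes, 28 were called lower and 0 higher, against 10.8% of all tested genes lower and 11.7% higher, with a median difference of -0.53. Their count without control replicate 3 was 58 lower (21.3% of all tested genes), with a median of -0.74, and it was 3 to 13 lower without any one of the other 5 libraries. With the RNA integrity covariate 0 were called lower and 1 higher, against 3.85% of all tested genes lower and 6.14% higher. MRPS26 stood at 11.68, 11.70 and 11.53 with GDF11, against 12.65, 12.76 and 12.32 in controls (-0.94 ± 0.16, adjusted p = 0.00404). MRPS27, a different gene from RPS27, fell by 0.81 ± 0.15 (adjusted p = 0.00507), MRPS2 fell by 1.15 ± 0.22 and MRPL23 fell by 1.10 ± 0.24. Once control replicate 3 was left out, the difference was -1.07 for MRPS26 (adjusted p = 0.000275), -0.83 for MRPS27 (adjusted p = 0.0014), -1.39 for MRPS2 (adjusted p = 0.000208) and -1.38 for MRPL23 (adjusted p = 0.000188). Whether the 2 families differ was not tested.

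Among 22 genes of mTORC1 and MYC control, which act on ribosomal protein messages, 2 rose, 3 fell and 17 were not called, where 11.7% of all tested genes rose and 10.8% fell. These counts are near those shares. Without control replicate 3, 3 were called higher and 7 lower, against 19.5% of all tested genes higher and 21.3% lower. DDIT4, whose product restrains mTORC1, stood at 14.03, 14.04 and 13.95 with GDF11, against 12.51, 12.61 and 12.45 in controls (1.48 ± 0.14, adjusted p = 0.000166), with control replicate 3 among the other controls. MXD1, an antagonist of MYC, rose by 1.06 ± 0.25 (adjusted p = 0.0161). MLST8, a subunit of mTOR complexes, fell by 1.15 ± 0.23 (adjusted p = 0.00874), and DEPTOR, an inhibitory mTOR partner, fell by 0.72 ± 0.11 (adjusted p = 0.00251). DEPTOR lay near the lowest value, with 16 to 20 normalised reads with GDF11 and 52 to 72 in controls. There the scale compresses log2 changes, so its difference cannot be ranked against that of MLST8. MYC, named after its values were seen as the remaining called gene of the list, stood at 11.76, 11.91 and 11.95 with GDF11, against 12.30, 12.67 and 13.08 in controls (-0.81 ± 0.20, adjusted p = 0.0213). Its highest value was in control replicate 3. The difference without control replicate 3 was 1.44 for DDIT4 (adjusted p = 5.05e-05), 1.35 for MXD1 (adjusted p = 0.000232), -1.43 for MLST8 (adjusted p = 0.000102), -0.68 for DEPTOR (adjusted p = 0.00283) and -0.61 for MYC (adjusted p = 0.00914).

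Among 20 chaperones and transport factors of ribosomal proteins, 3 fell, 0 rose and 17 were not called, where 10.8% of all tested genes fell and 11.7% rose. The count was 6 lower without control replicate 3 (21.3% of all tested genes), 1 without control replicate 2 and 0 without any one of the other 4 libraries. GRWD1, the human relative of a yeast chaperone of the RPL3 protein, fell by 0.70 ± 0.20 (adjusted p = 0.0334), with values of 11.56, 11.61 and 11.41 with GDF11, against 12.45, 12.43 and 11.81 in controls. AAMP, the human relative of a yeast chaperone of the RPL10 protein, fell by 0.58 ± 0.16 (adjusted p = 0.0327). IPO5, a nuclear import receptor, fell by 0.53 ± 0.14 (adjusted p = 0.0273), with 14.36, 14.22 and 14.35 in the controls, so that control replicate 3 was not low. RRS1, a factor of large subunit assembly, was not called (-0.44 ± 0.14, adjusted p = 0.0526). With control replicate 3 left out, the difference was -0.92 for GRWD1 (adjusted p = 0.000575), -0.70 for AAMP (adjusted p = 0.00231), -0.51 for IPO5 (adjusted p = 0.0069) and -0.37 for RRS1 (adjusted p = 0.0348).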

How the data were processed

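The authors deposited 1 table of variance-stabilised log2 values for 60240 Ensembl genes and 6 libraries. Salmon 1.2.1, Trimmomatic, DESeq2 and the build GRCh38 appear in the submitters' processing notes, and STAR 2.6 and hg19 in the labels' protocols; which of them made these values is not stated. The libraries kept strand and started from 250 ng of total RNA, per the labels' protocols. A gene without reads has the value 5.52.

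Values were inverted to normalised reads. Of the low values (up to 20 reads), 71.0% to 74.2% were whole within 0.01, so no count test was run. The scale keeps 0.994 of a log2 change at a value of 14, 0.978 at 12 and 0.696 at 8. Reads per kb use the annotated canonical transcript.

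Genes with a mean at least 0.5 above the lowest value entered a fit of limma 3.58.1 under R 4.3.3. The fit used a mean trend and no covariate, two-sided, with Benjamini-Hochberg adjustment over 18723 genes and a threshold of 0.05. In simulated data with independent noise per gene, the method recovered large added changes. Shifts shared by many genes of a library were not simulated. SE is limma's. Where nothing says more of how the replicates were raised, p-values measure the spread between these samples. Counts of replicate pairs differed by more than sampling. Chi-square over its degrees of freedom was 190 and 220.2 for control replicate 3 with control replicates 1 and 2. It was 26.4 to 59.7 for the other pairs within a group.

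Symbols matched 96.9% of IDs. Biotype, length and GC content came from a GRCh37 annotation; start regions from RefSeq GRCh38.p14.

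Named members were 24 fixed genes, those called, the 5 with the largest distance of control replicate 3 from the nearer other control, FAU, and up to 4 genes of each related list with the lowest p. Some genes that this rule names are not reported here. Members, lists and tests were chosen with earlier results of these data known. Alternatives covered filters, scales, normalization, covariates and left-out libraries; removing the GC and length trend together with control replicate 3 was added after seeing the data.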

Additional observations from a re-analysis of the deposited data

How the results depend on the processing

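The direction of the class was kept by every alternative but 1, and the number of members called was not. The median over the members was 0.011 with the RNA integrity covariate (all genes 1149 higher and 721 lower) and lay between -0.91 and -0.25 in all others. Members called lower numbered 0 to 72 when single libraries were left out, 72 of them without control replicate 3 and 0 without any other library. The following counts of members called lower have the share of all tested genes called lower in the same fit in brackets. They numbered 2 with no filter (5.15%), 6 with quantile normalization (11.8%) and 4 without the mean trend (11.2%). Library weights gave 71 (24.3%), the RNA integrity covariate 0 (3.85%) and summed pseudogenes 0 (10.6%). The GC and length trend removed gave 18 (16.7%), and 70 with control replicate 3 also removed (24.3%). At an adjusted p under 0.01 there were 0, against 791 of all 18723 genes. Under 0.1 there were 33, against 2973 of all 18723. Whether the replicate numbers pair the samples was not settled (correlations of -0.09, 0.38 and 0.48 for numbers 1, 2 and 3). With a replicate block 56 members were called lower, and 3306 of all genes. The same block called lower 13 of the oligopyrimidine list, 6 of the mTORC1 and MYC list and 7 of the chaperone list. It also called 49 mitochondrial ribosomal proteins lower and 1 higher.

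Over all genes, leaving out single libraries gave 1397 to 3647 higher and 955 to 3993 lower, library weights 4473 and 4554, the GC and length trend removed 3079 lower, that trend and control replicate 3 removed 3657 and 4486, and an adjusted p under 0.01 gave 1170 and 791. In the oligopyrimidine list the number lower was 0 to 17 with single libraries left out, 1 with quantile normalization, 2 without the mean trend, 18 with library weights, 6 and 21 with the trend removed and with control replicate 3 also removed, and 7 at an adjusted p under 0.1; its median was -0.052 with the RNA integrity covariate. In the mTORC1 and MYC list leaving out libraries gave 1 to 3 higher and 2 to 7 lower; library weights gave 4 and 7, the RNA integrity covariate and an adjusted p under 0.01 each 1 higher, and the trend removed 7 lower (8 with control replicate 3 also removed). In the chaperone list the number lower was 0 to 6 with libraries left out, 6 with a stricter filter, with median centring, without the mean trend and with the trend removed (with or without control replicate 3), 9 with library weights, 0 at an adjusted p under 0.01 and 7 under 0.1. Mitochondrial ribosomal proteins called lower numbered 3 to 58 with libraries left out, 65 with library weights, 0 with the RNA integrity covariate (1 higher, median -0.20), 62 with the trend and control replicate 3 removed and 3 under 0.01; quantile normalization gave 1 higher.

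Signs of uncalled single genes turned as follows. With the RNA integrity covariate they were RPS6 0.016, RPS27A 0.014, RPLP1 0.017, RPLP2 0.055, RPL10 0.025, RPL11 0.022, RPS27 0.24, RPL22 0.016, RPL26 0.076, RPL26L1 0.044, RPL36AL 0.064, RPL39 0.0081, RPL7L1 -0.43, RPS29 0.049, RPL36 0.0081, RPS19 0.012 and FAU 0.0019. With quantile normalization they were RPS27A 0.016, RPL11 0.071, RPS27 0.011, RPL26 0.16 and NPM1 0.046. RPS27L was -0.038 with library weights and -0.12 with the trend and control replicate 3 removed. RPL26 was 0.019 with the trend removed and 0.010 to 0.082 with libraries left out. RPL7L1 was -0.022 with median centring, -0.11 with the trend removed, -0.00022 with control replicate 3 also removed, and -0.099 to -0.031 without control replicate 1 or 2. In the cases listed the cause was not tested. Depth did not limit the canonical subunits, while RPL10L, RPL39L and RPL3L were too low for their differences to be read.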
